A study of Homo sapiens with 8 samples.

Results

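The regions described here had a peak in solvent-treated cells of 2 lung cancer lines and lost their peak with ACBI1 in HCC44 alone. They were selected on the measured peaks: overlapping peaks of all 8 deposited lists were merged (1 bp of overlap, chromosomes 1 to 22 and X), and a region was taken when it had a peak in all 4 DMSO lists and in both H1975 ACBI1 lists, and in neither HCC44 ACBI1 list. That gave 1825 of 69078 merged regions. They made up 6.28% of the 29080 regions with a peak in every DMSO list. Their presence and absence by line is therefore the rule itself and not a finding.

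The assay was ATAC-seq, which marks open DNA by where a transposase can cut and tag it. The cells were H1975 and HCC44, established human non-small cell lung cancer lines. The 4 groups were H1975 with DMSO (the solvent), H1975 with ACBI1, HCC44 with DMSO and HCC44 with ACBI1, each with 2 replicates and a treatment of 96 h. The label gives the ACBI1 dose as 1 mM. ACBI1 directs SMARCA2, SMARCA4 and PBRM1 to the proteasome; how far each protein was removed in each line is not analysed here, and each line is a single model of its genotype.

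SMARCA2 and SMARCA4 are the alternative ATPases of the SWI/SNF (BAF) complexes, which use ATP to slide or evict nucleosomes, and PBRM1 belongs to the PBAF form of the complex. In many cell types SWI/SNF is needed to keep enhancers open where sequence-specific factors such as AP-1 (dimers of FOS and JUN proteins) are bound. CpG-rich promoters of widely expressed genes tend to stay open with less SWI/SNF activity.

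Few of these regions were promoters, but those that were can be shown as sequence, because promoter windows were at hand. They were RefSeq windows (GRCh38.p14) from 250 bases before to 50 after a start site, on the gene's strand. A gene can have more than 1 window (22012 windows for 15712 genes), and a start site can lie inside the gene, far from its ends. In all, 110 windows of 97 genes overlapped a member region, out of 22012 windows of protein-coding genes. The first set is shown because it holds the AP-1 heptamer TGANTCA inside the member region; capitals mark the match. TRPV3 (a cation channel of keratinocytes) lies at chr17:3557763-3558062, minus strand. SRI (sorcin, a calcium-binding protein) lies at chr7:88226927-88227226, minus strand. KCNMA1 (the pore subunit of the large-conductance calcium-activated potassium channel) lies at chr10:77350712-77351011, minus strand. This window is at a start site inside the gene, away from its ends. CSF1R (the receptor of macrophage colony-stimulating factor) lies at chr5:150113316-150113615, minus strand. CXCL8 (interleukin-8, a neutrophil chemoattractant) lies at chr4:73740319-73740618, plus strand.
TRPV3: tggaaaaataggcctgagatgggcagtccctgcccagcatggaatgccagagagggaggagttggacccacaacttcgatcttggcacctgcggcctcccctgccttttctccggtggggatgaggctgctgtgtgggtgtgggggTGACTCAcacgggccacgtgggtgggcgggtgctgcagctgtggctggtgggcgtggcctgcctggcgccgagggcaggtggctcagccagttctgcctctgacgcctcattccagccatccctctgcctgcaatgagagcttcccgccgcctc
SRI: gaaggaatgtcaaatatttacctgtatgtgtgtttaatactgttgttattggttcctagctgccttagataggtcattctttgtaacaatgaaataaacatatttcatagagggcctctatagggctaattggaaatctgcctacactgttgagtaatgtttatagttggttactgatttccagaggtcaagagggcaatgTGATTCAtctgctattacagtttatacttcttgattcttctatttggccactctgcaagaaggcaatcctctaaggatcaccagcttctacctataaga
KCNMA1: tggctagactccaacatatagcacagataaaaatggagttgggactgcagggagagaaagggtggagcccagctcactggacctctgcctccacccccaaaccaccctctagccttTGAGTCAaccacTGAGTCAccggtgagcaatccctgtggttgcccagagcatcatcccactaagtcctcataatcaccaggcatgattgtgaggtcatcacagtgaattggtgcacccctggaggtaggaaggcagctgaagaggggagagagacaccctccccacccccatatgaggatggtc
CSF1R: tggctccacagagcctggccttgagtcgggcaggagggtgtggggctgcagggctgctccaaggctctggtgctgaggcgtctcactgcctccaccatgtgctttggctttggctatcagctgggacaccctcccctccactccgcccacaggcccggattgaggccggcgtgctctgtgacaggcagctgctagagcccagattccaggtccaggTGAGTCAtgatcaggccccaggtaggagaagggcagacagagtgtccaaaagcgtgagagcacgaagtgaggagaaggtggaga
CXCL8: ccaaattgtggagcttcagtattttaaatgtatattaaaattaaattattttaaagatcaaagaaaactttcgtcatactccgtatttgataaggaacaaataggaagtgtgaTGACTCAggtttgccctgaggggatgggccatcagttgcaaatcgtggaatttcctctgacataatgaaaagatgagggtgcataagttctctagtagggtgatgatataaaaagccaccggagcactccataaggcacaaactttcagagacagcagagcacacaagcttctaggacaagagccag

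The match began 104 bases before the start in TRPV3, 49 in SRI, 34 in CSF1R and 137 in CXCL8. KCNMA1 had 2 matches, 134 and 122 bases before the start. Among all member windows there were 16 matches, and 16 of 16 lay inside the member region. The windows were taken for overlapping a member region, and some lie wholly inside one, so this position is favoured by the choice. The share of window bases inside the regions is not given here.

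The second set is shown as the contrast within the members: promoters of widely expressed genes, with a higher CpG ratio than TRPV3, SRI and KCNMA1 and without an AP-1 match, hence without capitals. RPL38 (a protein of the large ribosomal subunit) lies at chr17:74203428-74203727, plus strand, with an observed over expected CpG ratio of 0.649. OAZ1 (ornithine decarboxylase antizyme, a brake on polyamine synthesis) lies at chr19:2269236-2269535, plus strand, with a ratio of 1.05. In TRPV3, SRI and KCNMA1 the ratio was 0.382, 0.0 and 0.0447.
RPL38: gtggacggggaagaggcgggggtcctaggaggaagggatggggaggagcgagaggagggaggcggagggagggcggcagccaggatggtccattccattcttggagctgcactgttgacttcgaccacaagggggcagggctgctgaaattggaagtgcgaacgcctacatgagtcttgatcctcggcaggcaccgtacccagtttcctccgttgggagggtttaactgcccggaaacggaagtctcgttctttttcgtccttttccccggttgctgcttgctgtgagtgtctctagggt
OAZ1: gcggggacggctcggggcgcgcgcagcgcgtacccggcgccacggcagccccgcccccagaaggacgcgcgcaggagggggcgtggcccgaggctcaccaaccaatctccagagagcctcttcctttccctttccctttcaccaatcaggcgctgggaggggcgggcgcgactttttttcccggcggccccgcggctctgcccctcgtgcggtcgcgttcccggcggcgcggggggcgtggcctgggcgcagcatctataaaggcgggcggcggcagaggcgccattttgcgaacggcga

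The values available per region are those of the authors' peak caller. The columns have no header and were read by the broadPeak layout. Peak strength is given below as the deposited −log10 q of the strongest peak in the region, always in the order H1975 DMSO 1 and 2, H1975 ACBI1 1 and 2, HCC44 DMSO 1 and 2. Because −log10 q moves with the depth of a library, which is unknown, lists were compared by percentile among the same 17679 regions that had a peak in all 4 DMSO lists and both H1975 ACBI1 lists. A missing peak is no measurement of closed chromatin. The lists held 22115 to 50323 peaks, and each began at a −log10 q between 10.0 and 10.2. The median −log10 q over all peaks of a list was 26.3 and 25.4 in the HCC44 ACBI1 lists, against 40.7 and 42.2 in the H1975 ACBI1 lists and 31.4 and 29.2 in the HCC44 DMSO lists. The part of this lower signal in the absence of the members' peaks was not tested.

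Loss in HCC44 was common: 10951 of the 29080 shared DMSO regions (37.7%) had no peak in either HCC44 ACBI1 list. Of these, 7291 (66.6%) also had none in either H1975 ACBI1 list, 1825 (16.7%) were the members, and 1835 (16.8%) had a peak in 1 H1975 ACBI1 list. Read from H1975, the members were 10.3% of the 17679 regions with a peak in all 6 lists, whereas 15070 (85.2%) also had a peak in both HCC44 ACBI1 lists and are called kept below. The reverse pattern, no peak in either H1975 ACBI1 list and a peak in the other 6, was found in 519 regions. The number of members depended most on 1 sample: without H1975 ACBI1 replicate 2, which had the shortest list, the rule on the other lists took 3572 regions. Leaving out a list drops a condition of the rule, which by itself tends to raise the number. It ran from 1826 to 3572 with each sample left out in turn. With the 22115 strongest peaks of each list the full rule took 1097.

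In H1975 the members kept a peak but a weak one. Their median −log10 q was 67.4 and 64.9 in the DMSO lists and 33.9 and 22.7 in the ACBI1 lists. Kept regions had 71.4 and 71.9 before and 76.7 and 58.6 after the degrader. As a percentile among the 17679 regions, the members' median was 47.7 and 45.3 in the H1975 DMSO lists and 20.2 and 17.8 in the ACBI1 lists, so the groups did not overlap. The mean over replicates was 19.0 ± 1.69 with ACBI1 and 46.5 ± 1.68 with DMSO (SD, n = 2 each), a difference of −27.5 percentile points against an SD between replicates of 1.69. The exact permutation test, two-sided, gave p = 0.333, the smallest that 2 samples against 2 allow (0.333 after Benjamini-Hochberg adjustment over 2 tests); the design cannot give a smaller one whatever the difference. With peaks of at least 5-fold enrichment the difference was −14.7, and ranked by the authors' fold enrichment −17.3. The kept regions moved from 51.4 and 51.9 to 56.5 and 56.5; percentiles are relative, so where some regions move down others must move up. Members and kept regions met one condition in these 6 lists and were told apart by the HCC44 ACBI1 lists alone.

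**Figure D1:**
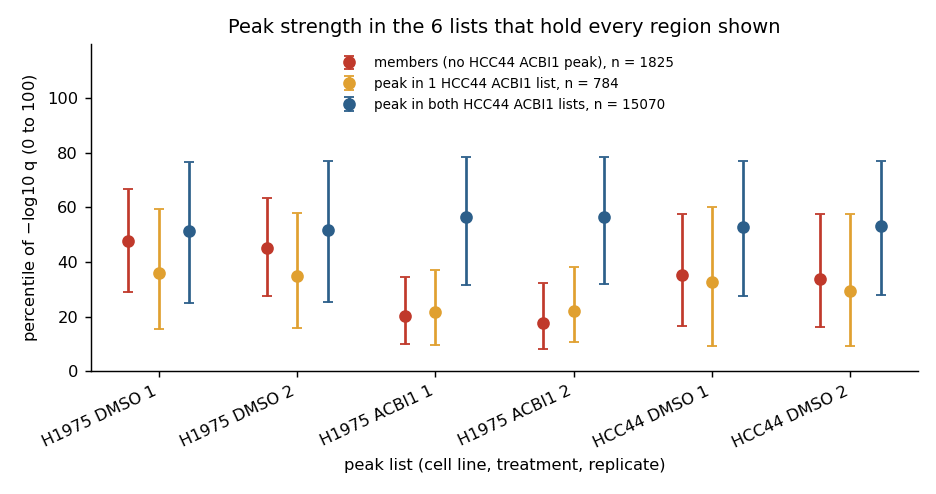
Percentile of −log10 q in each of the 6 lists that the members share, with the median over regions as a point and the quartiles as bars, for the members, the 784 regions with a peak in 1 HCC44 ACBI1 list and the 15070 kept regions. The members' points drop from 47.7 and 45.3 to 20.2 and 17.8 between the H1975 DMSO and ACBI1 lists, and lie at 35.1 and 33.8 in the HCC44 DMSO lists.

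Region by region, 1390 of 1825 members (76.2%) had both H1975 ACBI1 percentiles below both DMSO percentiles, against 27.5% of all 17679 regions and 3040 of 15070 kept regions (20.2%). The opposite order was found in 95 members (5.21%), against 40.2% of all regions. The median change of the mean percentile was −23.1 in members, with quartiles of −38.2 and −8.35, and 4.26 in kept regions. At like strength with DMSO the classes still lay apart after ACBI1. Among regions between the 60th and 80th percentile with DMSO in H1975, 391 members had a median of 67.7 with DMSO and 27.5 with ACBI1, and 3103 kept regions had 70.0 and 72.6. Away from gene boundaries (defined below) the kept regions lay lower with ACBI1 too, but by less: in this bin 375 members had 67.9 and 27.5, and 828 kept regions 69.4 and 64.6. Between the 80th and 100th percentile the values were 86.8 and 38.4 in 175 members, and 90.0 and 89.5 in 3217 kept regions; away from boundaries they were 87.1 and 38.6, and 89.8 and 84.2. Below the 20th percentile the 250 members had 12.5 and 8.88, and the 2957 kept regions 9.96 and 19.4.

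Sorted the other way, by how far a region moved in H1975, the share of members was 36.6% in the 20% of regions that moved down most. It was 8.57%, 3.48%, 1.81% and 1.13% in the next 20% classes. Among regions away from gene boundaries these shares were 50.3%, 32.2%, 13.7%, 5.14% and 1.92%. Regions without a peak in HCC44 ACBI1 were thus most frequent where the H1975 peak lost most rank while still being listed.

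**Figure D2:**
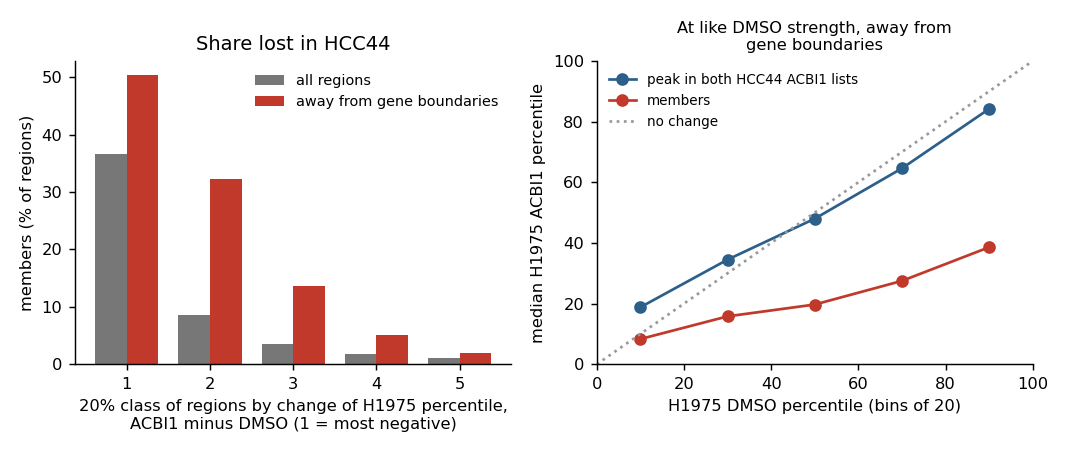
Left, members as a percentage of regions in 20% classes ordered by the change of the H1975 percentile (ACBI1 minus DMSO), over all regions and away from gene boundaries, and right, the median H1975 ACBI1 percentile against bins of the DMSO percentile, away from boundaries, for members and kept regions. The share of members over all regions drops from 36.6% in the most negative class to 1.13% in the most positive, and the members' line lies below that of kept regions in every bin.

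The largest drops in H1975 were chosen after their values were seen. A region inside HECW1 (a HECT-type ubiquitin ligase), chr7:43302130-43302905, had −log10 q of 134 and 172 in H1975 DMSO, 20.8 and 15.0 in H1975 ACBI1, and its mean percentile changed by −88.3. It had 65.9 and 49.8 in HCC44 DMSO, so the DMSO peak was strong in both lines. A region inside ZMIZ1 (a coactivator of the PIAS-like family), chr10:79298763-79300166, had 188 and 161 in H1975 DMSO, 29.1 and 15.5 after ACBI1, a change of −86.4. At the other end, 145 members (7.95%) lay above the 50th percentile after ACBI1 in H1975, against 57.0% of kept regions, and 7 lay above the 80th. One of the 7, at a boundary of SUN1 (a nuclear envelope protein of the LINC complex), had 54.9 and 53.0 in H1975 DMSO, 137 and 101 with ACBI1, and 18.3 and 19.3 in HCC44 DMSO. Another, inside MAEA (a subunit of the CTLH ubiquitin ligase), had 90.0 and 97.1, then 126 and 116, and 49.5 and 27.5 in HCC44 DMSO. In both regions every H1975 ACBI1 value was above every other value.

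In HCC44 itself the DMSO peaks of the members had a lower −log10 q than those of kept regions and ranked lower than in H1975. The rule, which asks for no peak in HCC44 ACBI1, itself favours regions with weak HCC44 peaks, so these values are a description. The other of the 2 tests compared the members' HCC44 and H1975 DMSO percentiles. No conclusion is drawn from it, because of this choice. The members' median −log10 q was 40.2 and 35.5, against 50.8 and 44.8 in kept regions. The percentile was 34.5 ± 0.868 in HCC44 DMSO and 46.5 ± 1.68 in H1975 DMSO (SD, n = 2 each), a difference of −12.0 against an SD between replicates of 1.34. It was −6.50 when the members were chosen and ranked without H1975 ACBI1 replicate 2, and −4.19 with peaks of at least 5-fold enrichment. Ranked by the authors' fold enrichment in place of −log10 q it was 3.16, the opposite sign. The members' median fold enrichment was 5.87 and 5.33 in HCC44 DMSO, against 5.51 and 5.05 in kept regions; by that measure they were not lower. Their peaks were narrower: 606 and 607 bp in HCC44 DMSO, against 1127 and 1124 bp in kept regions. In H1975 ACBI1 the members' peaks measured 481 and 295 bp, against 965 and 759 bp. These widths are not matched for position, and kept regions lay more often at gene boundaries (below).

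The 519 regions of the reverse pattern were weak in both H1975 DMSO lists as well, at percentiles of 11.3 and 10.4 among the 16526 regions with a peak in the 4 DMSO and both HCC44 ACBI1 lists. They had 38.7 and 39.2 in HCC44 DMSO and 10.8 and 10.5 in HCC44 ACBI1.

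By position the members were mostly distal. A gene boundary is here any base within 1 kb of an end of a protein-coding gene. Of the 1825 members, 158 (8.66%, Wilson 95% interval 7.45 to 10.0, counting error only) touched a boundary, 858 (47.0%) lay inside a gene away from its ends, and 809 (44.3%) lay outside genes at a median of 27310 bp from the nearest. The share at a boundary was 61.7% in kept regions, 11.4% in regions lost in H1975 only and 3.17% in regions lost in both lines. Read from the regions, 158 of 10183 shared DMSO regions at a boundary were members (1.55%), and 1667 of 18897 away from boundaries (8.82%). The share of members at a boundary was 26.0% with peaks of at least 5-fold enrichment, 3.83% with equal numbers of peaks, 19.3% with a 5 kb window and 17.2% with all annotated genes.

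Merged member regions were 775 bp wide at the median, with quartiles of 594 and 1071 bp, against 1298 bp in kept regions and 644 bp in those lost in both lines. Away from boundaries these medians were 760 bp in members, 1093 bp in kept regions and 643 bp in those lost in both lines. The nearest HCC44 ACBI1 peak lay 16080 bp away at the median; 13 members (0.712%) had one within 1 kb and 357 (19.6%) within 5 kb.

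Boundary and distal members differed in strength. Boundary members had a median −log10 q of 42.8, 43.7, 30.3, 20.6, 25.9 and 23.8, and the other members 69.1, 66.5, 34.3, 23.1, 41.8 and 37.0. Both H1975 ACBI1 percentiles lay below both DMSO percentiles in 1315 of 1667 members away from boundaries (78.9%) and in 75 of 158 at boundaries (47.5%). In kept regions the shares were 27.2% and 15.8%. The lower H1975 rank was more frequent among the distal members, and at each position more frequent in members than in kept regions. Boundary members began lower, at median H1975 DMSO percentiles of 23.1 and 23.9, against 49.2 and 46.7 in the other members. They thus had less room to move down.

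Of the 10 strongest members by mean percentile over their 6 lists, 0 touched a boundary and 5 lay inside a gene. Among all members 8.66% touched a boundary and 47.0% lay inside a gene away from its ends. The counts of the 10 were thus near the shares of all members. The first lay in SLC35F4 (a solute carrier), chr14:57833112-57833662, with 158, 142, 107, 107, 106 and 69.4. It was strong in all 6 lists, and the nearest HCC44 ACBI1 peak was 37634 bp away. The second lay in TIMP2 (an inhibitor of matrix metalloproteinases), chr17:78861941-78862652, with 128, 142, 113, 93.4, 89.8 and 94.7. Both regions held strong peaks in HCC44 DMSO and none after ACBI1.

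Another of the 10 lay in DPP9 (a dipeptidyl peptidase that restrains the NLRP1 inflammasome), with 164, 156, 135, 100, 72.2 and 56.2. The one 3893 bp from ARID5A (an RNA-binding protein that stabilises inflammatory transcripts) had 150, 142, 133, 66.7, 76.1 and 66.9, and an HCC44 ACBI1 peak only 1760 bp away. Further members of the 10 lay in CRISPLD2 and DNAJC5 and nearest to SHB, EIF5 and MDFIC. In 9 of the 10, both H1975 ACBI1 percentiles were below both DMSO percentiles, beside 76.2% of all members.

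Among boundary members the strongest lay at LOC728743, SMIM21, MAPK9, TRPV3, FUT8, ERLN, SRI, ACP7, SPATA12 and TNFRSF8, and 5 of these 10 overlapped a promoter window. At TRPV3, whose promoter is printed above, the −log10 q was 125 and 103 with DMSO in H1975, 54.6 and 20.8 with ACBI1, and 74.3 and 53.7 in HCC44 DMSO. At SRI it was 115 and 94.2, then 23.9 and 14.3, and 72.7 and 64.4 in HCC44 DMSO. The H1975 groups did not overlap at either gene, with ACBI1 percentiles of 41.2 and 14.8 at TRPV3 and of 7.47 and 4.59 at SRI. At a boundary of MAPK9 (JNK2, a kinase that phosphorylates JUN) the values were 103, 118, 82.3, 33.6, 57.9 and 54.6. At FUT8 (the fucosyltransferase of N-glycan cores) they were 118, 112, 68.6, 52, 46.3 and 44.0.

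At the threshold of the rule, the member with the lowest −log10 q in any of its 6 lists overlapped a promoter window of VDAC1 (a mitochondrial outer membrane channel), at 10.3 in HCC44 DMSO replicate 2 and 24.4 in H1975 DMSO replicate 1. Just outside the rule, a region 3841 bp from AMN1 and one in INS-IGF2 each had 1 HCC44 ACBI1 peak, at 10.3. A region 11084 bp from ID1 had one at 10.5, with 144 and 155 in H1975 DMSO. The 784 regions with a peak in just 1 HCC44 ACBI1 list had median percentiles of 35.8 and 34.9 in H1975 DMSO, 21.7 and 22.1 in H1975 ACBI1, and 32.6 and 29.2 in HCC44 DMSO.

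In AP-1, SP and ETS letters and in CpG ratio, the members' promoters lay between those of kept regions and those lost in both lines, as did those of the other intermediate classes. The AP-1 heptamer TGANTCA (read on both strands, its own reverse complement) was found in 14 of 110 member windows (12.7%), in 4.14% of 11327 kept windows, in 39.3% of 84 windows lost in both lines and in 6.16% of all 22012 windows. GGGCGG, the SP box, was found in 64.5%, 75.3%, 27.4% and 56.3%. CCGGAAG, an ETS core, was found in 10.9%, 20.1%, 2.38% and 12.8%. GGAATG, the TEAD hexamer, was found in 10.9%, 10.3%, 22.6% and 12.2%, so members and kept regions were alike in it. GGNGGCAG, part of the CTCF motif, was found in 28.2%, 19.8%, 11.9% and 18.8%. CCAAT, the NF-Y box, was found in 32.7%, 35.7%, 29.8% and 34.7%, and CACGTG, an E-box, in 11.8%, 10.3%, 4.76% and 8.32%. Of the 12 motifs, the remaining ones were rarer in member windows: TGTGGTT (RUNX) in 5.45%, GCGCATGCG (NRF1) in 3.64%, TGTTTAC (FOXA) in 3.64%, TGACGTCA (CRE) in 1.82% and TTGCNNCAA (CEBP) in 1.82%. Over all windows these shares were 3.7%, 2.34%, 2.86%, 2.25% and 1.69%. The median CpG ratio was 0.684 in members, 0.857 in kept, 0.225 in lost in both and 0.737 in all windows. Regions lost in H1975 only had AP-1 in 17.0%, SP in 56.6% and ETS in 3.77% of 53 windows, with a CpG ratio of 0.595. Regions with a mixed outcome had 12.9%, 59.1% and 6.92% of 318 windows and 0.66, so these shares were not particular to the members. All motifs were read on both strands; GGGCGG and GGNGGCAG can share bases, and a match is a description of letters, not of binding.

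Within the 93 promoter members, the H1975 percentile was compared by sequence. A split at a CpG ratio of 0.6 was chosen after the values were seen. In the 58 members at or above it, the median H1975 percentile was 14.7 with DMSO and 17.1 with ACBI1, with a lower mean with ACBI1 in 22 (37.9%). In the 35 below it, the median was 37.2 and 11.9, with a lower mean in 28 (80%). The groups thus began at unequal strength, and a region at a low percentile has little room to move down. Kept promoters had a lower mean in 30% and 44.2%, with median changes of 4.65 and 1.22. In the 13 with an AP-1 match the median was 61.8 and 16.5, with a lower mean in 11 (84.6%). In the 80 without one, the median was 17.4 and 15.9, with a lower mean in 39 (48.8%). The groups of this split also began at unequal strength, and those without a match had little room to move down. Kept promoters with an AP-1 match had a lower mean in 46.2% and a median change of 0.851, and those without in 30.2%.

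**Figure D3:**
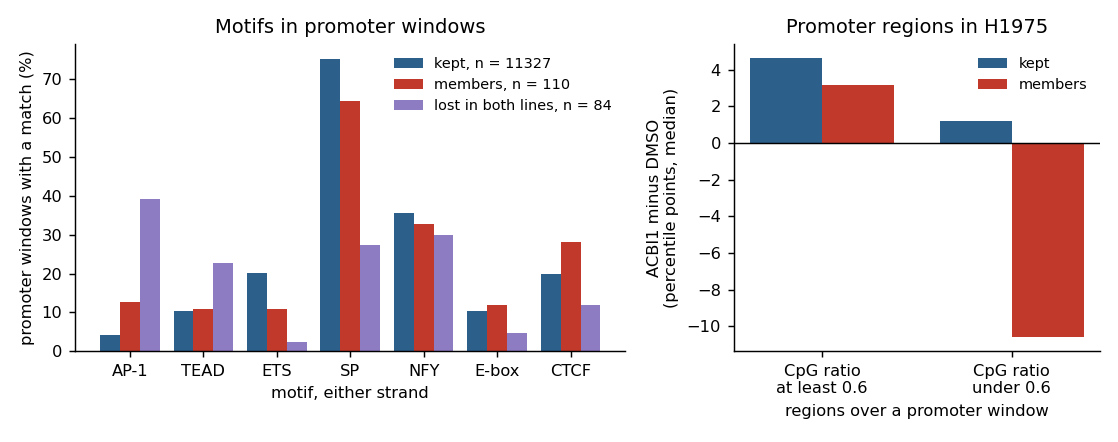
Left, percentage of 300-base promoter windows with each motif in kept regions, members and regions lost in both lines, and right, the median change of the H1975 percentile (ACBI1 minus DMSO) of kept and member regions over promoters, by CpG ratio. Members held the AP-1 heptamer in 12.7% of windows, between 4.14% in kept regions and 39.3% in those lost in both lines, and their median change was 3.15 at a CpG ratio of at least 0.6 and −10.6 under it.

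The single promoters show both kinds. RPL38, whose window above has no AP-1 match, had −log10 q of 34.5 and 33.3 in H1975 DMSO, 39.8 and 33.2 in H1975 ACBI1, and 20.4 and 17.0 in HCC44 DMSO. OAZ1 had 42.9, 49.7, 71.3, 50.9, 22.6 and 19.0. FTL (ferritin light chain) had 64.7, 65.7, 92.7, 57.0, 21.3 and 17.6. In these 3 the H1975 groups overlapped or ACBI1 lay higher, and the HCC44 DMSO peak was already weak. Promoters with an AP-1 match did not all go one way. CSF1R had 99.5, 87.2, 31.6, 10.9, 45.6 and 34.9, with both H1975 ACBI1 values far below DMSO. KCNMA1, with 2 matches, had 69.7, 99.1, 87.3, 96.7, 32.4 and 29.9, and its H1975 groups overlapped.

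Across the genome the members were spread widely. They fell into 1641 runs when joined over gaps of up to 50 kb, and 1487 runs held a single member. The 4 longest lay at MYH9 (5 of 11 shared DMSO regions in 137168 bp), PTPN1 (5 of 7), RAP1GAP2 (4 of 5) and ABTB2 (4 of 6). By chromosome the share of shared DMSO regions that were members ran from 3.07% on chromosome 21 and 3.41% on chromosome 6 to 9.07% on chromosome 22 and 9.97% on chromosome 10 (133 of 1334). Kept regions also differed by chromosome: their percentile in H1975 DMSO minus HCC44 DMSO was 14.4 on chromosome 10, 10.9 on 22, −7.19 on 6 and −10.8 on 21. Over the 23 chromosomes the members' share and this difference had a Pearson correlation of 0.77 and a Spearman correlation of 0.76, as a description: the points share the same 4 DMSO libraries, and copy number of the lines is not analysed here. The part of such chromosome-wide differences in the choice of members was not tested.

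**Figure D4:**
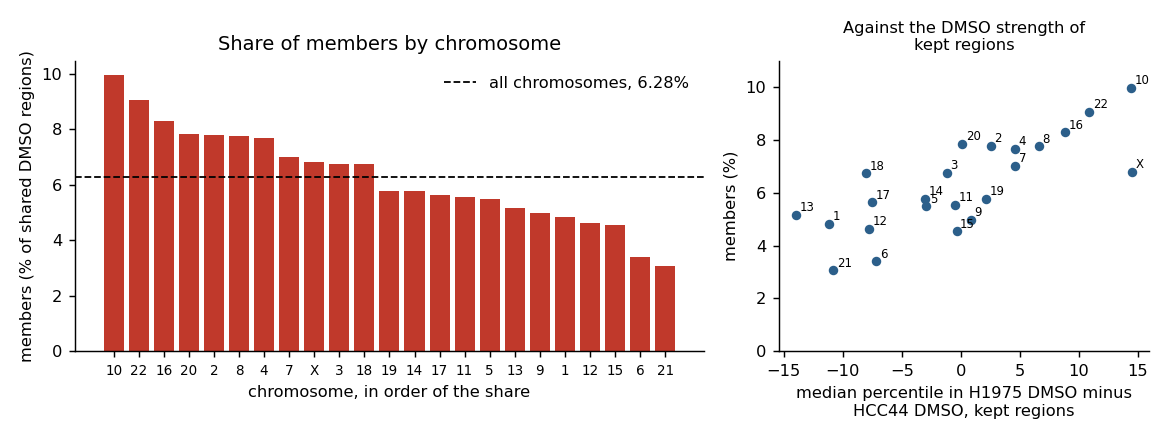
Left, members as a percentage of shared DMSO regions on each of the 23 chromosomes, with the 6.28% over all of them as a dashed line, and right, the same percentage against the kept regions' median percentile in H1975 DMSO minus that in HCC44 DMSO. Chromosome 10 (9.97%, difference 14.4) and chromosome 21 (3.07%, difference −10.8) lie near opposite ends.

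By gene, 2933 of 16371 protein-coding genes with a shared DMSO region inside or within 50 kb had at least 1 member there (17.9%). Of these, 2478 had 1 member, 391 had 2, 52 had 3, 11 had 4 and 1 had 7. The gene with 7 was RAP1GAP2, which activates the GTPase of Rap1, a regulator of integrin adhesion; 7 of its 16 shared DMSO regions were members, 6 were kept and 2 lost in both lines. Its peaks numbered 21 and 20 (H1975 DMSO), 18 and 15 (H1975 ACBI1), 21 and 20 (HCC44 DMSO), and 8 and 8 (HCC44 ACBI1). The low HCC44 ACBI1 count follows in part from picking the gene for its number of members. All 7 lay inside the gene, which spans 282.1 kb, and in 7 of 7 both H1975 ACBI1 percentiles were below both DMSO percentiles, the order also found in 78.9% of all members away from boundaries.

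The strongest RAP1GAP2 member, chr17:2960176-2960963, had −log10 q of 135, 123, 43.9, 30.7, 85.7 and 74.5. One at chr17:2811985-2812526 had 117, 101, 39.1, 14.2, 52.4 and 48.0, and one at chr17:3003787-3004741 had 106, 90.1, 43.3, 22.1, 49.2 and 47.1. In each, both ACBI1 peaks in H1975 were far weaker than with DMSO. The weakest, chr17:2853375-2855281, overlapped a promoter window and had 28.8, 25.8, 19.8, 13.8, 18.4 and 15.0.

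**Figure D5:**
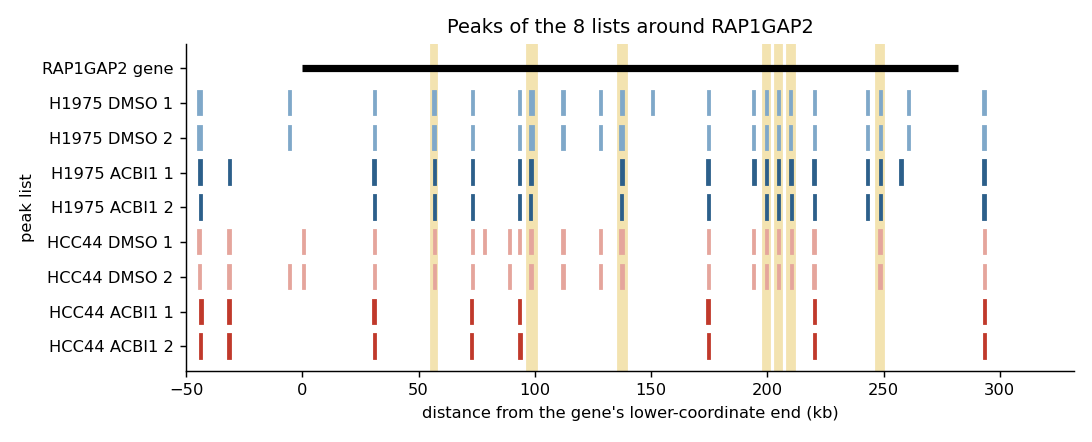
Peaks of each of the 8 lists along RAP1GAP2, by distance in kb from the lower-coordinate end of the gene, with the 7 members as shaded bands; peaks are drawn at least 1 kb wide and bands widened so that they can be seen. The members hold peaks in 6 lists and none in the HCC44 ACBI1 lists, which have 8 peaks each in the gene and its flanks.

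Another 11 genes had 4 members each. KCNMA1, with a promoter window inside the gene printed above, had 4 members among 11 shared DMSO regions, with 6 lost in both lines and 1 kept. Its peaks numbered 18 and 18, 6 and 6, 15 and 16, and 2 and 1 in the 4 groups. ADAM12 (a disintegrin metalloprotease) had 4 of 14, with 21 and 21, 11 and 6, 17 and 18, and 5 and 2 peaks. MYH9 (the heavy chain of non-muscle myosin IIA) had 4 of 11, and PRKCE (protein kinase C epsilon) 4 of 21. PTPN1 (the phosphatase PTP1B, which acts on the insulin receptor) had 4 of 8, with 9 and 8, 8 and 7, 9 and 10, and 4 and 2 peaks. At PTPN1 the 2 H1975 groups were close in number, and HCC44 ACBI1 had the fewest. These genes were picked for their members, which by the rule have no HCC44 ACBI1 peak. Their low HCC44 ACBI1 counts thus follow in part from the choice. ABTB2, BEAN1, CUBN (the endocytic receptor cubilin), LITAF, TTC7A and ZMIZ1 also had 4.

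Of 8 gene lists (136 genes), 131 genes had a shared DMSO region nearby, 30 had a member, and 34 member regions were involved. Both H1975 ACBI1 percentiles were below both DMSO percentiles in 27 of these 34 (79.4%) and above in 3, close to the 76.2% and 5.21% of all members. The share of genes with a member was 30.8% for AP-1 (4 of 13), 31.6% for epithelial to mesenchymal transition (6 of 19), 27.8% for lung and squamous lineage (5 of 18), 26.3% for SWI/SNF (5 of 19), 23.5% for EGFR and RAS (4 of 17), 18.2% for NRF2 (2 of 11), 16.7% for Hippo (2 of 12) and 9.09% for STING and interferon (2 of 22). The share over all genes was 17.9%, and a gene with more shared regions has more chances to hold a member. Counted over regions, members were 2.99% (Hippo) to 8.08% (epithelial to mesenchymal transition) of each list's shared regions, beside 6.28% over the genome.

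For the STING and interferon list, to which the series title refers, CXCL8 had 2 shared DMSO regions and both were members. The one over its promoter, chr4:73740401-73740767, which holds the AP-1 match printed above, had 61.5, 66.4, 42.6, 21.3, 28.4 and 25.8. The one 35193 bp away had 60.1, 50.9, 24.0, 18.3, 32.8 and 28.7. In both, the H1975 groups did not overlap.

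Among AP-1 genes, FOSL1 and FOSL2 (FRA1 and FRA2), BATF2 and MAFK had a member. The FOSL1 region, 1693 bp from the gene, was weak throughout, with 35.4, 41.3, 28.6, 33.2, 25.7 and 23.5. The FOSL2 region, 28342 bp away, had 65.0, 59.5, 63.3, 47.6, 33.2 and 24.3. At FOSL2 both H1975 ACBI1 percentiles (47.9 and 47.2) were above both DMSO percentiles (45.4 and 40), and at FOSL1 the groups overlapped (13.3 and 32.3 against 16.2 and 21.6). Of the Hippo genes, YAP1 (the coactivator of TEAD factors) had a member inside the gene with 78.1, 69.6, 39.1, 16.5, 57.2 and 40.7, and TEAD3 had one with 71.5, 54.4, 42.2, 23.8, 44.4 and 23.7.

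Of the SWI/SNF genes, ARID1A, ARID1B, BRD7, SMARCA4 and SMARCC1 had 1 member each. The one in SMARCC1 (a core scaffold subunit), chr3:47725656-47726021, had 81.9, 79.6, 32.8, 31.6, 54.0 and 48.9. The one in ARID1A, the subunit that defines the BAF form, was weak, with 30.2, 28.9, 31.5, 27, 32.3 and 21.4.

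Of the epithelial and mesenchymal genes, the largest gap within H1975 was near CLDN4 (a tight junction claudin), 2534 bp from the gene, with 118 and 105 with DMSO, 28.8 and 18.3 with ACBI1, and 45.7 and 35.2 in HCC44 DMSO. CDH1 (E-cadherin) had a member inside the gene with 89.1, 93.3, 71.4, 44.9, 29.6 and 21.4, the higher values all in H1975. TGFB2, EPCAM and SNAI1 had 1 each.

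In the lineage list, FOXA2 (a forkhead factor of lung epithelium) stood apart: the boundary region had 43.7 and 44.8 in H1975 DMSO, 68.7 and 51.3 in H1975 ACBI1, and 13.8 and 14.9 in HCC44 DMSO, with an HCC44 ACBI1 peak 595 bp away. The region 32376 bp from TP63 (the squamous regulator p63) had 63.7, 62.5, 46.2, 29.0, 77.5 and 62.8, strong in HCC44 DMSO. ELF3, KRT8 and KRT19 had 1 each. In the EGFR and RAS list, the region 32771 bp from EGFR had 128, 106, 52.2, 24.5, 68.8 and 55.8. SPRY4 (a feedback inhibitor of receptor tyrosine kinase signalling) had 2 members among 4 shared regions, the stronger with 134, 132, 51.0, 23, 74.9 and 51.9. In the EGFR region and the stronger SPRY4 region both H1975 ACBI1 percentiles were below both DMSO percentiles. In the weaker SPRY4 region the percentiles overlapped (24.1 and 8.51 with ACBI1, 33.0 and 21.3 with DMSO). Of the NRF2 genes, the region 22626 bp from HMOX1 (haem oxygenase 1) had 88.7, 82.2, 31.9, 25.2, 54.7 and 40.6.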

How the data were processed

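ATAC-seq peak lists of 8 samples were used, 1 per sample. The authors deposited columns with no header, read by the broadPeak layout as fold enrichment (a ratio), −log10 of each peak's p-value and of its q-value, and a score that was not used. BWA and hg38 are named per the submitters' processing notes, with no role given; the peak caller is not given in the sources used here. Read depth is unknown, so no counting interval applies to a peak's strength. Peaks outside chromosomes 1 to 22 and X (167) were left out. A region's strength in a list was its strongest peak by −log10 q, ranked as a percentile among 17679 regions. Genes were placed with a RefSeq table (GRCh38.p14, 19974 protein-coding genes). The regions named were the 10 strongest members, the 10 strongest at a gene boundary, the 10 genes with most members (ties by symbol order; 11 genes tied, and the 2 this order left out are named as well), and the members near genes of 8 lists. The members and lists were chosen with earlier results of these data known. The labels do not say that replicates were separate cultures, so p-values refer to these samples only. With 2 samples against 2, such a p is at its smallest whenever the groups do not overlap, so it does not measure a spread. Alternatives were a −log10 q of at least 20, a fold of at least 5, equal numbers of peaks, ranking by fold, other boundary windows, pairing by replicate number and leaving out each sample. Python 3.11.15, numpy 2.4.6, pandas 2.3.3, scipy 1.17.1 and matplotlib 3.10.9 were used, and the functions were tested on simulated data. Sequences of distal members need a genome and were not analysed here. Values of some regions that these rules name are not reported here.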

Additional observations from a re-analysis of the deposited data

How the results depend on the processing

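Of 40 values under other settings, 28 stayed within the limits set for them, as did 35 of 48 leaving out 1 sample, and 1 value reversed. The limit was a factor of 1.5 for the number of members and the 95% interval for the shares and the width. For the percentile differences it was the sign alone, so a much smaller difference still counted as within it. The replicate block leaves these differences unchanged by construction. The number of members was 1097 with equal numbers of peaks and 1826 to 3572 leaving out 1 sample, which also drops a condition of the rule. Their share of shared DMSO regions was 7.45% with a −log10 q of at least 20, 13.1% with at least 5-fold enrichment, 8.26% with equal numbers, and 5.91% to 12.3% leaving out 1 sample. The share at a gene boundary was 11.5%, 26.0% and 3.83% under these 3 settings, 19.3% with a 5 kb window, 17.2% with all annotated genes, and 6.66% to 10.8% leaving out 1 sample. The median width was 884 bp with the stricter q, 875 bp with the stricter fold, and 735 to 794 bp leaving out 1 sample. The percentile difference between HCC44 and H1975 with DMSO was −4.19 with at least 5-fold enrichment, 3.16 ranked by fold, and −13.2 to −6.50 leaving out 1 sample; the cause of the reversal was not tested. The H1975 difference with ACBI1 was −14.7 with at least 5-fold enrichment, −27.2 among regions away from boundaries (chosen after seeing the data), and −28.5 to −22.5 leaving out 1 sample. With a replicate block these differences were −12.0 and −27.5, the latter with p = 0.5 by the exact permutation test within pairs, the smallest it allows. Peak depth limits all of this: a peak below a list's threshold cannot be told apart from no signal.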
